A study of Mus musculus with 26 samples.

Results

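Glucocorticoid and metallothionein response genes were followed across the mesenteric arteries of mice with an altered pannexin 1. The 9 genes were chosen by name: the metallothioneins Mt1 and Mt2, and Fkbp5, Tsc22d3, Zbtb16, Klf9, Sgk1, Pdk4 and Cdkn1a. The authors' normalized table of 21031 genes held 8 of them, and Mt2 was found only in the table of raw counts, which lists 57010 genes. Mesenteric arteries are the resistance vessels of the gut, and pannexin 1, encoded by Panx1, is a membrane channel that releases ATP. Poly(A) RNA was sequenced from male mice aged 8 weeks, in 26 libraries of 8 groups.

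The first comparison set 3 libraries of mice with a global Panx1 knockout (Panx1 KO) against 3 wild-type (WT) libraries. Each of the other comparisons used mice with one exchanged residue of pannexin 1, labelled +/+ for the exchange, and that line's own controls, labelled -/-. There were 3 Y198F libraries with 3 controls, 4 S205A libraries with 4 controls, and 3 Y308F libraries with 3 controls. The design text speaks of littermate or WT controls and of 3 vascular trees per genotype, so the fourth S205A tree of each group is not explained there. The knockout is global, so arteries were not the sole tissue without the channel. The exchange is named in the labels without the cells that carry it. Time of day at collection and treatment with a hormone are not stated. Nothing says which mice shared a litter or a day, so p-values measure the spread between these libraries.

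Glucocorticoid hormones enter the cell and bind the glucocorticoid receptor, encoded by Nr3c1, which then moves to the nucleus and binds DNA as a pair. Its best-known target genes include Fkbp5, Tsc22d3 (also called Gilz), Zbtb16, Klf9, Sgk1 and Per1. Hormone release follows a daily rhythm and rises with stress, and in arteries the hormone raises the response to constrictors. Metallothioneins are small cysteine-rich proteins that bind zinc and copper. The factor MTF1 switches them on through metal response elements when metal is in excess, and glucocorticoids raise them as well.

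Total counts per library ran from 14895969 to 23617902. Panx1 itself stood at 0.582 to 1.36 CPM (a library's counts scaled to a common total) in the Panx1 KO libraries and at 3.38 to 4.96 CPM in WT. S205A control library 1 was also low, at 0.830 CPM, inside the range of the knockout. Smooth muscle markers summed to between 19610 and 41513 CPM in every library, with the muscle of the labelled tissue thus present, and endothelial markers to between 1157 and 9775 CPM. Adipocyte markers ran from 54.4 to 3008 CPM. In bulk arteries, fewer cells of a type and less RNA per cell cannot be told apart. The names of 9 libraries hold a number that begins with 22: all 3 Y198F, S205A controls 1 to 3 and S205A 2 to 4. The other libraries have a number that begins with 23 or 24, or, in WT and Panx1 KO, no number of this kind. What these numbers stand for is not stated.

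Promoter sequences from RefSeq (GRCm38.p6) were searched for motifs of the metal and hormone responses. The table held 16 promoters of 8 of the 9 genes, each running from 250 bases before the annotated start to 50 after it. The metal response element was searched as TGCACNC or TGCGCNC on both strands. It occurred at least once in 25.7% of the 32851 promoters of the table and at least 3 times in 1.97%. Mt1 held 3 matches and Mt2 held 4, none of which overlapped another. Both promoters are shown because they carry the same element while the counts of their transcripts lie far apart. The stretch runs to 30 bases after the start, and capitals mark the matches.
Mt1 (chr8:94178839-94179118, plus strand): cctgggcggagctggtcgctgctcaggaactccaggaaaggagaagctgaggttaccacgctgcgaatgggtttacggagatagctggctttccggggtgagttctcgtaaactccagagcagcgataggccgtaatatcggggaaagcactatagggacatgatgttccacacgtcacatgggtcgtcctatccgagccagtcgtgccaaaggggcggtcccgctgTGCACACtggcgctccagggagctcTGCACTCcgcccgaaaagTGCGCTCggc
Mt2 (chr8:94172368-94172647, plus strand): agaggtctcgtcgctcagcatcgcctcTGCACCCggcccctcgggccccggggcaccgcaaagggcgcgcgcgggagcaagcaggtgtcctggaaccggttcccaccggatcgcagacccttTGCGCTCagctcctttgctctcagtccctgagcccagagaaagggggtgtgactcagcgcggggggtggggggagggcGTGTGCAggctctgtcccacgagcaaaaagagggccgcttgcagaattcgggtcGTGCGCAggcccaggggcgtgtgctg

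The binding motif of the paired glucocorticoid receptor was searched as the palindrome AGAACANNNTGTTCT. It occurred in 3 of the 32851 promoters, a share of 0.00913%, and one of these was 1 of the 6 promoters of Sgk1. That sequence is shown, with the palindrome in capitals, at positions -189 to -175 from the start. The single arm TGTTCT, which lies within the palindrome, searched on both strands, occurred in 4 of the 16 promoters of these genes and in 19% of all promoters. The promoters of Pdk4, Fkbp5, Cdkn1a and Klf9 held no match of any motif searched. A match is a description of letters, not a measured binding site.
Sgk1 (chr10:21993640-21993919, plus strand): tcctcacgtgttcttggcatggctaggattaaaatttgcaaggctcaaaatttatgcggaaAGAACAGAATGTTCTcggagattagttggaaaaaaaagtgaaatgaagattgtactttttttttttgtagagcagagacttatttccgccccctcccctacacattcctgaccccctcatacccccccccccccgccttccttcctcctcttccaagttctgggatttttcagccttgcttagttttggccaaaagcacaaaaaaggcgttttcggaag

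Among the metallothioneins, Mt1 was measured in every library and Mt2 almost nowhere. Mt1 (ENSMUSG00000031765, chromosome 8, 94905710 to 94906955 on the plus strand of GRCm39) gathered 6604 counts, between 103 and 843 a library. Mt2 (ENSMUSG00000031762, chromosome 8, 94898819 to 94900207, plus strand) gathered 34 counts in all. It had 0 counts in 16 libraries and was at or under the floor of 3 counts in 24. The libraries above the floor were Y198F library 3 with 12 counts and S205A control library 3 with 7. Per kilobase of exon, mean levels were 10.8 CPM for Mt1 and 0.0734 CPM for Mt2. No fold change of Mt2 is given, since its levels lie near the floor.

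The position of Mt2 bears on how its reads could be counted. Of its 950 exon bases, 783 (82.4%) lie under exons of Gm45774, a long noncoding RNA gene on the opposite strand, which gathered 19 counts itself. The other 167 exon bases were free of it. Whether counting used the strand is not stated, and the part of this overlap in the low count was not tested. Among 99 protein-coding genes with at least 80% of their exon bases under an opposite-strand gene, 38 (38.4%) had at most 50 counts, against 42.3% of 13789 genes with no overlap and 11.9% of 7776 genes with a smaller one. All protein-coding genes entered these shares, whether arteries express them or not, so they cannot show whether an overlap removes reads. Exons of Mt1 overlapped no other gene. Mt3 reached at most 23 counts in a library, and Mt4, which is known from squamous epithelium, had 0 counts in all 26.

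**Figure D1:**
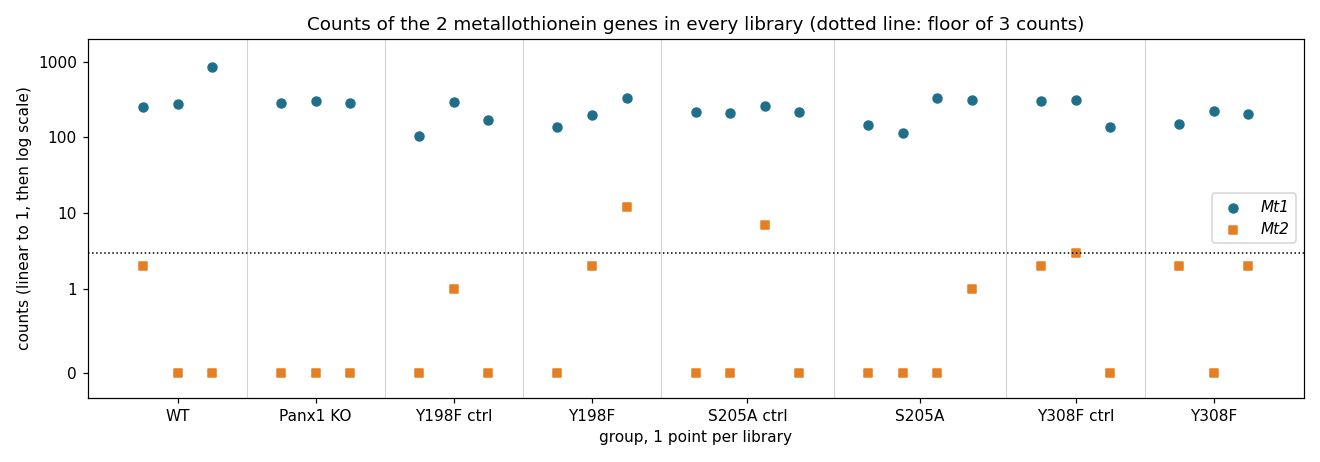
Counts of Mt1 (circles) and Mt2 (squares) in each of the 26 libraries, by group. The vertical axis is linear to 1 and logarithmic above it, and the dotted line is the floor of 3 counts. Mt1 lies between 103 and 843 counts throughout, while Mt2 exceeds the floor in Y198F library 3 and S205A control library 3 only.

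The feedback and effector genes of the hormone response were well covered, and all are protein-coding genes. Coordinates are those of GRCm39. The annotation places Fkbp5 (ENSMUSG00000024222) on chromosome 17 from 28618058 to 28737521 (minus strand) and Cdkn1a (ENSMUSG00000023067) on chromosome 17 from 29309936 to 29319701 (plus strand). It places Tsc22d3 (ENSMUSG00000031431) on chromosome X from 139440091 to 139501408 (minus strand) and Zbtb16 (ENSMUSG00000066687) on chromosome 9 from 48563141 to 48748664 (minus strand). The kinase genes are Sgk1 (ENSMUSG00000019970) on chromosome 10 from 21758083 to 21875802 (plus strand) and Pdk4 (ENSMUSG00000019577) on chromosome 6 from 5483097 to 5496339 (minus strand). Last, it places Klf9 (ENSMUSG00000033863) on chromosome 19 from 23118187 to 23148497 (plus strand). Per kilobase of exon, mean levels over the 26 libraries were 31.9 CPM for Klf9, 18.0 for Pdk4, 10.5 for Tsc22d3, 8.38 for Sgk1, 6.26 for Cdkn1a, 3.26 for Zbtb16 and 1.89 for Fkbp5. The order is one of levels, not of response. Zbtb16, Tsc22d3 and Pdk4 shared no exon base with another gene. Opposite-strand genes covered 14.4% of the exon bases of Sgk1, 12.5% of Cdkn1a, 4.05% of Klf9 and 3.58% of Fkbp5, and without knowledge of strand such reads cannot be told apart. The receptor gene Nr3c1 ran from 123 to 207 CPM. Nr3c2, the mineralocorticoid receptor, had 333 to 797 counts a library. Hsd11b1, whose enzyme regenerates active hormone, had 47 to 903 counts. Hsd11b2, whose enzyme inactivates it, had at most 14 counts and was at 0 in 8 libraries.

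The members differed widely in how far they spread among libraries. The highest library exceeded the lowest 18.7-fold for Fkbp5 (5.0 to 93.6 CPM), a co-chaperone that lowers the receptor's affinity for hormone. For Zbtb16, a zinc finger transcription factor also called Plzf, it was 14.6-fold, from 8.53 to 125 CPM. Mt1 spanned 7.52-fold and Tsc22d3 7.35-fold, while Klf9, a Krüppel-like repressor, spanned 2.26-fold. The spread within groups exceeded that of most genes of like level: the standard deviation of log2 CPM was larger than in 99.1% of such genes for Zbtb16, 97.7% for Fkbp5, 97.5% for Pdk4 and 96.3% for Tsc22d3. The share was 71.8% for Klf9. WT library 3 was the highest of all 26 libraries for 4 genes, Mt1, Fkbp5, Tsc22d3 and Zbtb16.

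**Figure D2:**
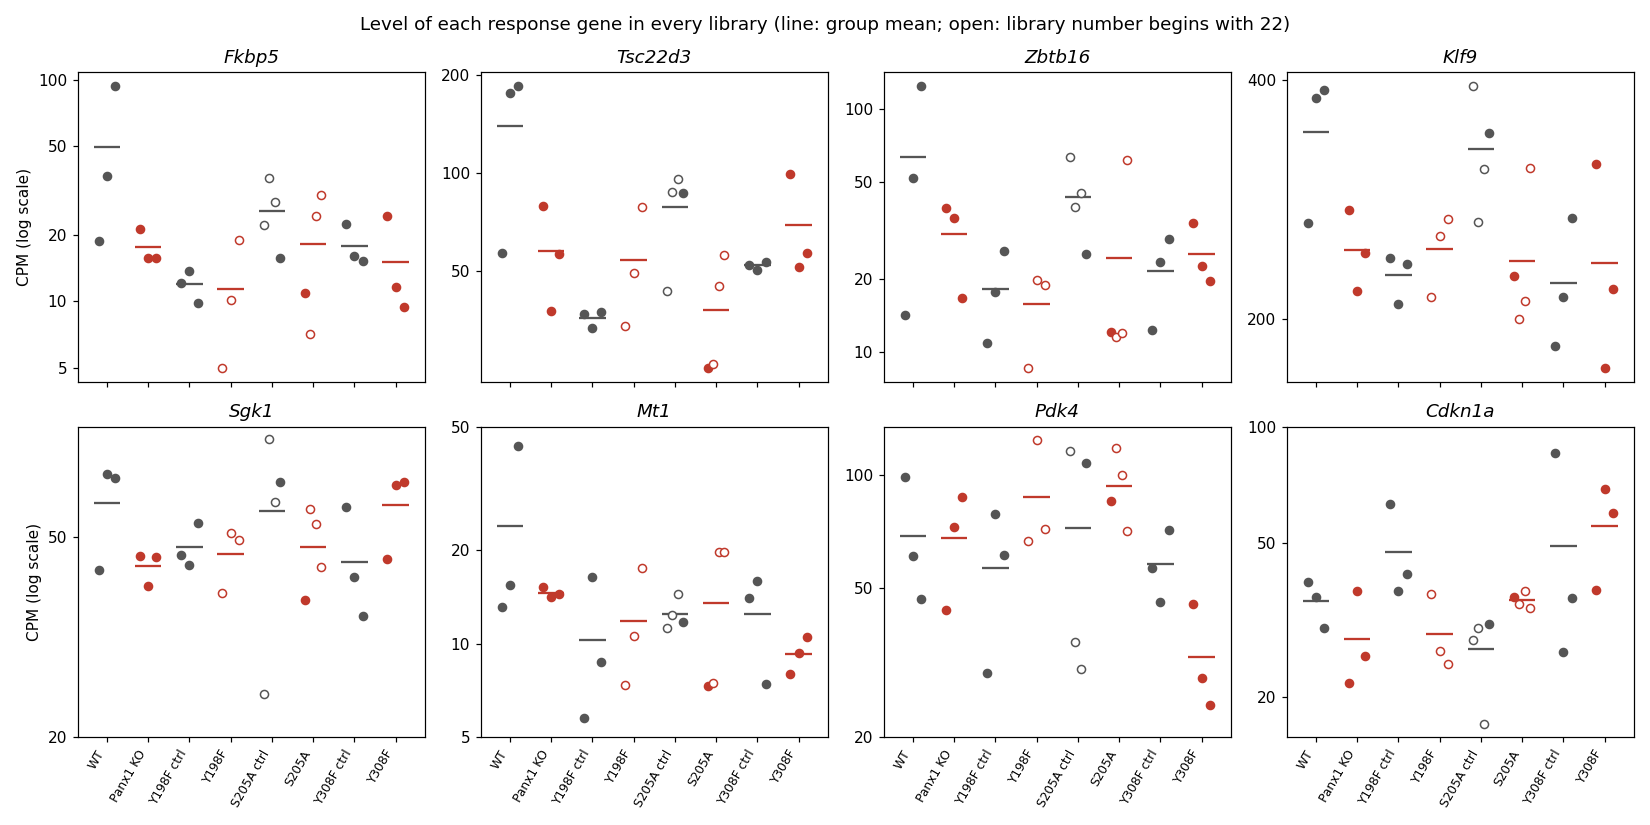
Level of each gene in every library in CPM on a logarithmic axis, by group, with lines at the group means. Open circles are libraries whose number begins with 22. WT libraries 2 and 3 lie far above WT library 1 in Fkbp5, Tsc22d3 and Zbtb16, and the spread within groups is as wide as the distance between most groups.

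The knockout comparison asks what loss of the channel does to these genes. Fold changes of 7 of the 8 tested genes lay below 0 in Panx1 KO, beside 49.2% of all 16193 genes tested. None passed the threshold of an adjusted p under 0.05 (edgeR's quasi-likelihood test with Benjamini-Hochberg adjustment), against a background of 5 genes called, 0.0309%. DESeq2 and limma voom also called 0 of the 8. At an unadjusted p under 0.05 there were 2 of 8, Klf9 and Sgk1, beside 11.2% of all genes. The groups overlapped for all 8, while they did not for 18.8% of all genes. The median log2 fold change was -0.58 for the 8 genes and 0.01 for all genes. Unmutated groups were also low against these WT libraries. Y198F controls and Y308F controls each had 7 of the 8 below 0, with medians of -0.88 and -0.78.

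Fkbp5 stood at 18.8, 36.9 and 93.6 CPM in WT libraries 1 to 3 and at 21.3, 15.6 and 15.7 CPM in Panx1 KO. WT libraries 2 and 3 were above every Panx1 KO library, and WT library 1 was not. The log2 fold change was -1.49 (SE 0.647, adjusted p = 0.488). Tsc22d3, a leucine zipper protein that carries part of the anti-inflammatory action of the hormone, read 56.6, 175 and 185 CPM in WT against 79.2, 37.6 and 56.4 CPM in Panx1 KO. Again WT library 1 lay inside the knockout range. Its log2 fold change was -1.25 (SE 0.557, adjusted p = 0.499).

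Zbtb16 read 14.2, 52.1 and 125 CPM in WT and 39.0, 35.7 and 16.7 CPM in Panx1 KO. The WT libraries lay on both sides of the knockout range, and the log2 fold change was -1.05 (SE 0.876, adjusted p = 0.716). Without WT library 3 it came to -0.10, and that of Fkbp5 to -0.65. Mt1 was level in the knockout, at 15.3, 14.2 and 14.4 CPM, and read 13.1, 15.4 and 43.3 CPM in WT. Only WT library 3 stood apart, and without it the log2 fold change of -0.69 (SE 0.485, adjusted p = 0.647) became 0.06.

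Klf9 read 264, 380 and 389 CPM in WT and 275, 217 and 243 CPM in Panx1 KO. Its log2 fold change was -0.47 (SE 0.169, adjusted p = 0.382), and the range over all alternatives was -0.64 to -0.36, with an adjusted p of 0.0968 to 0.752. Sgk1, a kinase that promotes sodium uptake, read 42.9, 66.5 and 65.5 CPM in WT against 45.9, 39.8 and 45.5 CPM in Panx1 KO. That is a log2 fold change of -0.39 (SE 0.170, adjusted p = 0.436). For both genes, WT libraries 2 and 3 were above all knockout libraries. Pdk4, a kinase that turns off pyruvate dehydrogenase in fasting, was at 68.7 ± 27.0 CPM in WT and 67.9 ± 22.2 CPM in Panx1 KO (SD, n = 3 each). Cdkn1a, the cell cycle inhibitor p21, was at 35.4 ± 4.86 and 28.3 ± 8.35 CPM (SD, n = 3 each).

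Other genes induced by the hormone also had lower estimates. Of 28 listed genes, 24 had a fold change below 0, and their median log2 fold change was -0.54. None was called, and 14 had an unadjusted p under 0.05, beside 49.2% of all genes below 0 and 11.2% at such a p. Cebpb, a transcription factor of the acute phase, had the log2 fold change -1.08 (SE 0.202, adjusted p = 0.273). The list's summed level ran from 4925 to 5131 CPM in WT and from 3839 to 4119 CPM in Panx1 KO. Against the same WT libraries, unmutated Y198F controls had 23 of the 28 below 0, with a median of -0.33 and 8 at an unadjusted p under 0.05. Y308F controls had 21 of the 28 below 0, with a median of -0.37 and 7 at such a p. The 7 adipocyte markers lay below 0 as well, with a median of -1.55 and summed levels of 518 to 3008 CPM in WT against 185 to 912 CPM in Panx1 KO. WT library 3 was the highest for Adipoq, at 271 CPM. The 3 erythroid markers also lay below 0, with a median of -2.70, and WT library 3 stood apart in them, at 350.8 CPM in sum against 22.7 and 1.11 CPM in WT libraries 1 and 2 and 11 to 21.6 CPM in Panx1 KO. Smooth muscle markers had a median of -0.24 (6 of 6 below 0), macrophage markers one of 0.51 (0 of 6 below 0) and clock genes one of -0.24 (11 of 15 below 0). The part of these cell types and of the clock in the differences was not tested.

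**Figure D3:**
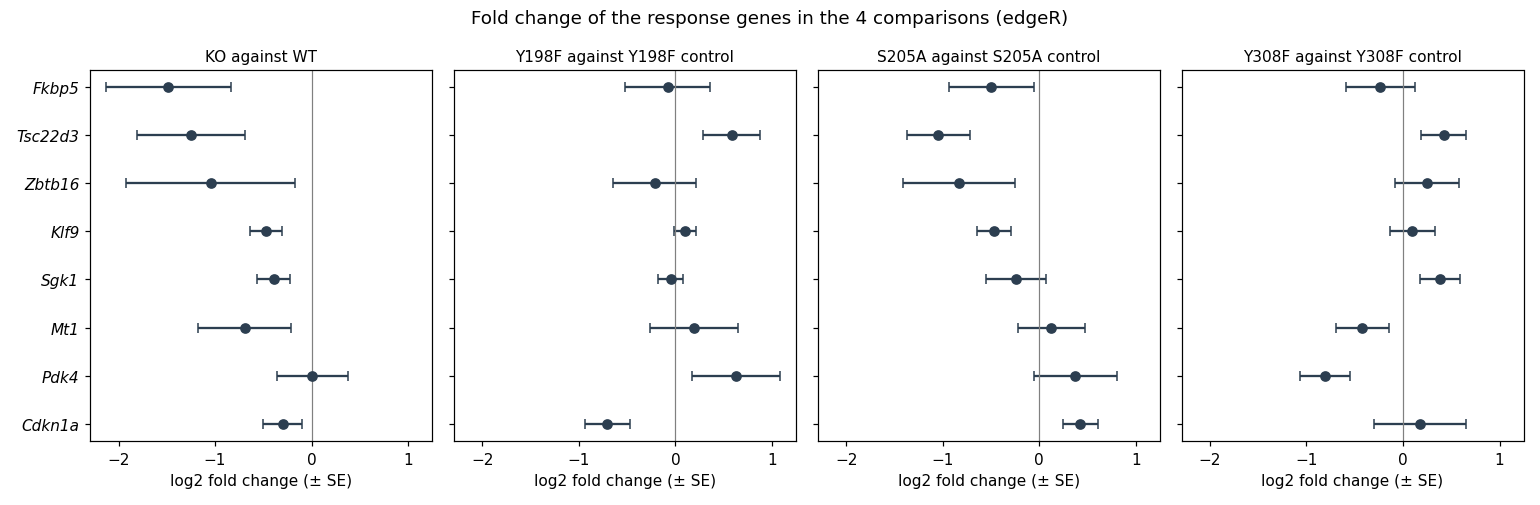
Log2 fold change of the 8 genes in the 4 comparisons, mutant minus control, from edgeR. Points are estimates and bars are 1 standard error. The knockout panel holds 7 estimates below 0, led by Fkbp5 at -1.49, and the S205A panel holds Tsc22d3 at -1.04, while none of the 32 estimates passed the threshold.

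The S205A line carries an exchanged serine of pannexin 1. None of the 8 genes passed the threshold, nor did any of the 15709 genes tested (0% called by edgeR). At an unadjusted p under 0.05 there were 3 of the 8 and 451 of all genes (2.87%). DESeq2 called 38 genes, none of them among the 8, and limma voom called 0. Both kinds of library number occur in each group of this line.

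Tsc22d3 read 25.1, 25.9, 44.9 and 56.0 CPM in S205A libraries 1 to 4 and 43.4, 87.3, 95.5 and 86.8 CPM in the controls. Controls 2 to 4 were above every mutant library, and control 1 was not. The log2 fold change was -1.04 (SE 0.323, unadjusted p = 0.0102 and adjusted p = 1.000 by edgeR). It ran from -1.29 to -0.83 over the alternatives, with an adjusted p of 0.242 at the lowest. Klf9 read 227, 200, 211 and 310 CPM against 393, 265, 310 and 344 CPM, a log2 fold change of -0.47 (SE 0.179). Here the ranges overlapped through S205A library 4.

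Cdkn1a was the only one of the 8 whose S205A groups did not overlap, beside 1.81% of all genes, 1.16% with the mutant higher. It read 36.4, 34.8, 37.6 and 33.9 CPM in S205A and 28.2, 30.1, 17.1 and 31.0 CPM in the controls. The mutant libraries lay close together and above all 4 controls. The log2 fold change was 0.42 (SE 0.180), and the exact two-sided permutation p of 0.0286 (n = 4 each) is the smallest this design allows. Among the 6 libraries whose number begins with 22, the log2 fold change was 0.50, and without S205A control 3, the lowest, it was 0.26.

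Of the 28 listed hormone-induced genes, 17 were below 0 in S205A with a median of -0.09, and none was called. At an unadjusted p under 0.05 there were 5, beside 2.87% of all genes, and all of these were higher in S205A. Angptl4, an inhibitor of lipoprotein lipase, had the log2 fold change 2.21 (SE 0.674), and Dusp1, a phosphatase of MAP kinases, 0.85 (SE 0.317). The others were Gadd45g (0.81, SE 0.343), Ctgf (0.73, SE 0.240) and Txnip (0.56, SE 0.187). Clock genes had a median log2 fold change of -0.84 over 15 genes in this line. Immediate early genes, which answer to many stimuli within minutes, had a median of 0.85, fibroblast markers one of 1.40, and Schwann and nerve markers one of 1.01 (3 of 4 at an unadjusted p under 0.05). Adipocyte markers had a median of -0.54 (7 of 7 below 0). None of these was called. Dbp, an output gene of the clock, read 8.79, 46.2, 83.3 and 201 CPM in S205A and 168, 219, 300 and 130 CPM in the controls. Their part in the values of Tsc22d3, Klf9 and Cdkn1a was not tested. Fkbp5 was at 18.1 ± 10.8 CPM in S205A and 25.5 ± 8.73 in controls, and Mt1 at 13.6 ± 7.15 and 12.4 ± 1.41 (SD, n = 4 each). Zbtb16 was at 24.3 ± 25 CPM, a mean that S205A library 4 decides, and 43.3 ± 15.7 in controls (SD, n = 4 each). Its log2 fold change of -0.83 (SE 0.582) became -1.87 without that library. Sgk1 was at 47.6 ± 8.82 CPM against 56.3 ± 22.8, and Pdk4 at 93.5 ± 20.2 against 72.2 ± 45.2 (SD, n = 4 each), with overlap in both. Without S205A control 1, the control with low Panx1, log2 fold changes were -1.24 for Tsc22d3, -0.37 for Klf9, 0.45 for Cdkn1a, -0.49 for Sgk1 (-0.24 with it) and 0.69 for Pdk4 (0.37 with it), and none passed.

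The Y308F line carries an exchanged tyrosine. None of the 8 genes passed, and edgeR, DESeq2 and limma voom each called 0 of the genes tested (0% of 16037). Pdk4 was the only one with an unadjusted p under 0.05, as were 706 of all genes (4.4%). It read 45.3, 28.7 and 24.4 CPM in Y308F and 56.4, 45.7 and 71.2 CPM in the controls. Every mutant library was below every control, the nearest being 45.3 and 45.7 CPM. Of all genes, 10.7% had groups that did not overlap, 5.75% with the mutant lower. The log2 fold change was -0.81 (SE 0.256, adjusted p = 0.940) and the exact permutation p 0.1, the smallest possible. Of the 28 listed hormone-induced genes, 16 were below 0 with a median of -0.04, and 5 had an unadjusted p under 0.05. Mesothelial markers had a median of -1.90 and Schwann and nerve markers one of -0.52, each with 4 of 4 below 0. Adipocyte markers had a median of -0.58 (6 of 7 below 0), macrophage markers one of -0.31 (6 of 6 below 0) and immediate early genes one of 0.37 (1 of 15 below 0). Lymphocyte markers had a median of -0.58 (4 of 4 below 0). Clock genes had one of 0.34 (6 of 15 below 0). Dbp read 222, 1.73 and 2.85 CPM in Y308F libraries 1 to 3 and 3.45, 193 and 214 CPM in controls 1 to 3. The part of these in the value of Pdk4 was not tested.

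Of 14 other PPAR, FOXO and fasting genes tested, 9 had a fold change below 0, with a median of -0.06 and none called. Among the hormone targets no fold change passed in Y308F. Tsc22d3 was at 69.0 ± 26 CPM against 51.9 ± 1.43 in controls, Sgk1 at 57.7 ± 10.8 against 44.6 ± 11.5, and Mt1 at 9.25 ± 1.25 against 12.5 ± 4.46 (SD, n = 3 each). For all 3 the groups overlapped. In Tsc22d3, Y308F library 1 stood at 98.8 CPM and libraries 2 and 3 at 51.3 and 56.8 CPM. Its log2 fold change of 0.42 (SE 0.235) ran from 0.0637 to 0.61 with 1 library left out. Log2 fold changes were 0.25 for Zbtb16 (SE 0.332), -0.24 for Fkbp5 (SE 0.356), 0.18 for Cdkn1a (SE 0.472) and 0.09 for Klf9 (SE 0.232), each smaller than its standard error.

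The Y198F comparison differs from the others in that all 3 mutant libraries have a number that begins with 22 and none of their controls does. Genotype and number cannot be told apart in it. Of 16050 genes, 2411 (15%) were called, 9.55% higher and 5.48% lower, and none of the 8 was. At an unadjusted p under 0.05 there was 1 of 8 beside 29.1% of all genes. DESeq2 called 1 of the 8, Cdkn1a, among 2849 genes in all, and limma voom called none of the 8 among 2990.

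Cdkn1a read 36.9, 26.4 and 24.4 CPM in Y198F and 63.2, 37.5 and 41.7 CPM in the controls. The groups did not overlap, as for 34.2% of all genes (15.1% with the mutant lower), and the nearest libraries were 36.9 and 37.5 CPM. The log2 fold change was -0.71 (SE 0.232, adjusted p = 0.0813 by edgeR and 0.0120 by DESeq2). It was -0.91 without Y198F library 1 (adjusted p = 0.0384) and -0.44 without Y198F control 1 (adjusted p = 0.159). Set against the 3 S205A controls that share the number, the same libraries gave 0.21 (SE 0.252), and against all 4 S205A controls 0.13.

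Tsc22d3 read 34, 49.1 and 78.8 CPM in Y198F and 36.8, 33.4 and 37.4 CPM in its controls. One mutant library stood within the control range and the others above it, a log2 fold change of 0.58 (SE 0.294, adjusted p = 0.259). Without Y198F library 1 it was 0.82 (adjusted p = 0.0207), and without Y198F library 3 it was 0.21 (adjusted p = 0.419). Against the S205A controls that share the number it was -0.49, and Klf9 went from 0.10 to -0.40. For Fkbp5 and Zbtb16 the log2 fold changes against their own controls were -0.08 (SE 0.441) and -0.21 (SE 0.430), and against the S205A controls that share the number -1.34 (SE 0.474) and -1.65 (SE 0.341), with neither called. Pdk4 was at 87.3 ± 31.7 CPM in Y198F and 56.4 ± 24.8 CPM in controls, and Sgk1 at 46.2 ± 6.66 and 47.7 ± 4.84 CPM (SD, n = 3 each).

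All calls in this comparison were lost against the S205A controls and with the number start as a term, which left 0 genes each. Clock genes carried large differences between Y198F and its own controls. Of 15 listed, 5 rose and 2 fell, with Dbp at 97.6, 132 and 259 CPM in Y198F against 4.82, 11.7 and 11.9 CPM in its controls. The S205A controls that share the number had Dbp at 168, 219 and 300.4 CPM. Among hormone-induced genes, 3 of 28 rose, a share near the 9.55% of all genes called higher: Cebpd by 0.88, Map3k6 by 0.88 and Cebpb by 0.86 on the log2 scale. Of 12 listed targets of p53, the factor best known for inducing Cdkn1a, Bax (0.83) and Phlda3 (0.63) rose while Eda2r (-1.15) and Trp53inp1 (-0.45) fell. Of 14 genes of the fasting response tested, Klf15 and Cpt1a rose by 0.99 and 0.57 on the log2 scale. These counts, 4 of 12 and 2 of 14, stand beside 15% of all genes called in either direction. Adipocyte markers had a median of 1.23 (7 of 7 above 0, none called) and summed to 213, 523 and 2181 CPM in Y198F libraries 1 to 3 against 372 to 495 CPM in controls. Erythroid markers had a median of 1.45 (3 of 3 above 0) and summed to 37.4, 26.7 and 218 CPM in these libraries. Y198F library 3 was the highest of its group in both lists and in Tsc22d3, Fkbp5 and Mt1. Fibroblast markers had a median of -1.04 (4 of 6 at an unadjusted p under 0.05, none called). Of 6 smooth muscle markers 2 were called higher, as was 1 of 6 endothelial markers (Cldn5), and of 4 Schwann and nerve markers 1 was called lower. The part of the clock genes and of these cell types in the values was not tested.

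Differences between the effects of the mutations were tested as interactions. Over the 6 pairs of mutations and 8 genes there were 48 tests, of which none passed by edgeR and 10 had an unadjusted p under 0.05. Panx1 KO against Y198F called 11.6% of all genes and Y198F against Y308F 5.7%. Panx1 KO against S205A and Y308F called 0.00562% and 0.0116%, and S205A against Y198F and Y308F 0% each. Shares at an unadjusted p under 0.05 were, in the same order, 26.4%, 22.3%, 4.16%, 3.1%, 14.3% and 3.49%. The lowest adjusted p was 0.0935, for Klf9 between Panx1 KO and Y198F, a difference of -0.57 (SE 0.210) on the log2 scale. Cdkn1a, lower than its controls in Y198F and higher in S205A without overlap in either, had a difference of -1.13 (SE 0.305, adjusted p = 0.195). Tsc22d3 had a difference of 1.62 between the same lines (SE 0.488, adjusted p = 0.231). The Y198F effect enters these differences of Klf9, Cdkn1a and Tsc22d3, and in it genotype and number cannot be told apart. Against the S205A controls that share the number, all of these genes had the opposite sign in Y198F.

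Control groups can be compared with each other, since none carries a mutation. WT, Y198F controls and Y308F controls hold no library of the 22 number. Tsc22d3 was at 139 ± 71.4 CPM in WT, 35.9 ± 2.16 in Y198F controls and 51.9 ± 1.43 in Y308F controls (SD, n = 3 each). WT lay above both others without overlap. The log2 fold changes of -1.92 (SE 0.380, adjusted p = 0.484) and -1.42 (SE 0.373, adjusted p = 0.804) did not pass. Without WT library 1, the low one, they became -2.30 and -1.80 and were called by edgeR, with adjusted p-values of 3.82e-05 and 0.000383, in fits that called 2 and 1 genes in all. Library 1, at 56.6 CPM, was itself above every library of both other groups, so these calls rest on leaving out the lowest of the 3 WT values.

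Fkbp5 in Y198F controls was also below WT without overlap, with a log2 fold change of -2.03 (SE 0.534), as was Klf9 with -0.57 (SE 0.182). Without WT library 3 the value of Fkbp5 was -1.21. Between Y198F controls and WT, clock genes had a median of -1.81, with 10 of 15 at an unadjusted p under 0.05 and summed levels of 550.3 to 618 CPM against 1044 to 1844 in WT. Adipocyte markers had a median of -1.71, with 7 of 7 below 0 and summed levels of 372 to 495 CPM against 518 to 3008 in WT. Erythroid markers had a median of -1.88 (3 of 3 below 0) and summed levels of 9.74 to 78.7 CPM against 1.11 to 350.8 in WT. Lymphocyte markers had a median of -0.56 (5 of 5 below 0). Their part in the differences was not tested. Thus 3 of 8 genes were without overlap, beside 16.9% of all genes. Between Y308F controls and WT it was 1 of 8, Tsc22d3, beside 9.34%. There adipocyte markers had a median of -0.59 (7 of 7 below 0) and clock genes one of -0.38, while endothelial markers had one of 0.66 and mesothelial markers one of 3.12 (0 of 6 and 0 of 4 below 0). Between Y308F and Y198F controls it was 2 of 8 beside 13.9%: Fkbp5 and Tsc22d3 were higher in Y308F controls, with log2 fold changes of 0.56 (SE 0.53) and 0.50 (SE 0.371). Between these 2 groups clock genes had a median of 1.17, adipocyte markers 1.10 (7 of 7 above 0), erythroid markers 2.21 and mesothelial markers 2.71. The part of the markers in these values was not tested. No member was called in any of the 3 pairs with all libraries, and edgeR called 0% of 16745 genes in each pair, with 8.24%, 5.92% and 6.38% of genes at an unadjusted p under 0.05. Of the 8 members, 3 had such a p for Y198F controls against WT, 3 for Y308F controls against WT (Fkbp5, Tsc22d3 and Klf9) and 0 for Y308F against Y198F controls.

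In the S205A line the number start could be tested beside genotype. There S205A library 1 and S205A control 4 were the only libraries outside the 22 start, so the term rests on them. The term called 902 of 15709 genes (5.74%) and none of the 8. Log2 differences, 22 minus the others, were 1.10 for Zbtb16 (SE 0.692), 0.89 for Fkbp5 (SE 0.496) and 0.56 for Mt1 (SE 0.397). Without S205A library 4 that of Zbtb16 was 0.48. That of Mt1 was 0.10 without S205A library 1 and 1.11 without S205A control 4. None of the 8 had an unadjusted p under 0.05, and 21.5% of all genes did.

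Several targets of the hormone were correlated across libraries. Libraries were split by number start, which called 5.74% of genes in the S205A line. Those calls rest on S205A library 1 and S205A control 4, the only ones there outside the 22 start. The 28 pairs of genes in 2 sets gave 56 correlations. In the 17 libraries outside the 22 start, Fkbp5 and Tsc22d3 had a Pearson r of 0.83 and a Spearman rho of 0.684 (permutation p adjusted over 56, 0.00336 and 0.0609). Tsc22d3 and Klf9 had r = 0.804 and rho = 0.740 (permutation, adjusted p = 0.00364 and 0.0568). In all, 7 pairs passed on r, formed by Fkbp5, Tsc22d3, Zbtb16, Klf9 and Mt1, and no pair passed on rho.

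These values were lower without WT libraries 2 and 3. Without the libraries farthest from the median, which were WT 2 and WT 3 for pairs led by Fkbp5, Tsc22d3 or Zbtb16, r fell to 0.616 for Fkbp5 and Tsc22d3, 0.597 for Tsc22d3 and Klf9 and 0.503 for Tsc22d3 and Zbtb16. For Fkbp5 with Zbtb16 it fell to 0.260, for Fkbp5 with Klf9 to 0.361, for Zbtb16 with Klf9 to 0.364 and, without WT 3 and Y198F control 1, for Mt1 with Fkbp5 to 0.430. Those 4 relations rest on the libraries left out. In the 9 libraries of the 22 start, 1 pair passed: Zbtb16 and Klf9, with r = 0.915 and rho = 0.90 (exact permutation, adjusted p = 0.00675 and 0.0568), and r = 0.898 without the farthest 2.

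Sgk1, Pdk4 and Cdkn1a were in no pair that passed. All 15 pairs among the 6 genes other than Pdk4 and Cdkn1a, Sgk1 included, were positive in the 17 libraries, and 13 of 15 in the 9 libraries, where Sgk1 was negative with Zbtb16 (-0.187) and Klf9 (-0.488). Of the 7 pairs with Cdkn1a, 1 was positive in each set. Of the 7 pairs with Pdk4, 3 were positive in the 17 libraries and 1 in the 9 libraries. The place of Mt1 depended on its 2 farthest libraries. Without them its r in the 17 and the 9 libraries was 0.430 and 0.390 with Fkbp5 and 0.223 and 0.0429 with Tsc22d3. With Zbtb16 it was 0.0944 and -0.252, and with Klf9 -0.00625 and -0.371.

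**Figure D4:**
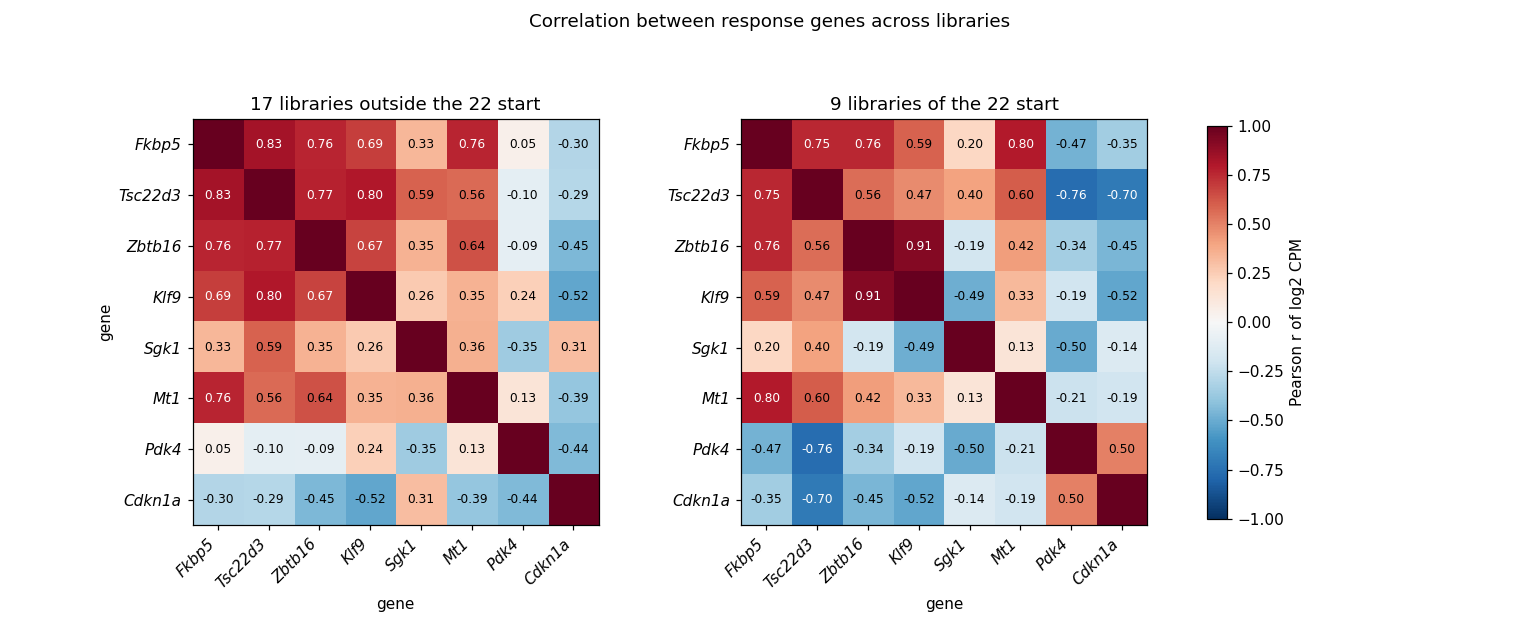
Pearson correlation of log2 CPM between the 8 genes in the 17 libraries outside the 22 start (left) and the 9 libraries of it (right), on a colour scale from -1 to 1. Fkbp5, Tsc22d3, Zbtb16, Klf9 and Mt1 form a positive block in both with no library left out. It is strongest for Fkbp5 with Tsc22d3 (0.83) on the left and Zbtb16 with Klf9 (0.915) on the right. Most values in the rows of Pdk4 and Cdkn1a are below 0.

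The clock output gene Dbp was set beside these genes, since its level differed widely among libraries. In the 17 libraries outside the 22 start, Dbp fell into 2 separate clusters, of 7 libraries at 1.73 to 11.9 CPM and of 10 at 46.9 to 256 CPM. The low cluster held all Y198F controls, S205A library 1, Y308F control 1 and Y308F libraries 2 and 3, so groups of 1 line stood in both. Cdkn1a had a median of 59.7 CPM in the low cluster and 33.5 CPM in the high one, with ranges of 36.4 to 85.6 and 21.7 to 39.8 CPM. Klf9 had medians of 219 and 271 CPM, and Tsc22d3 of 37.4 and 67.9 CPM. For these 3 genes the clusters overlapped, as they did for Fkbp5 (medians of 11.6 and 17.4 CPM) and Zbtb16 (17.6 and 31.5 CPM). Over all 17 libraries together Cdkn1a (negative), Klf9, Zbtb16 and Fkbp5 (positive) passed on r, and since those values join both clusters they are not given.

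Within the clusters 16 correlations with Dbp were computed, 8 genes in each, and none passed (the lowest adjusted permutation p was 0.182 for r and 0.219 for rho). For Cdkn1a, r was -0.837 and rho -0.679 in the low cluster and -0.212 and -0.297 in the high one. Klf9 had r = 0.650 and rho = 0.571 in the low cluster and r = 0.517 and rho = 0.552 in the high one. Tsc22d3 had opposite signs, with r = -0.785 and rho = -0.643 in the low cluster and r = 0.595 and rho = 0.552 in the high one. Pdk4 had them the other way, with r = 0.793 and rho = 0.786 in the low cluster and r = -0.642 and rho = -0.758 in the high one. Sgk1 went from r = -0.734 to r = 0.235. Fkbp5 had r = -0.135 and rho = 0 in the low cluster and r = 0.485 and rho = 0.564 in the high one. Zbtb16 had r = -0.0153 and rho = 0 in the low cluster and r = 0.467 and rho = 0.552 in the high one. In the 9 libraries of the 22 start, where Dbp ran from 46.2 to 300.4 CPM, Tsc22d3 had r = 0.914 and rho = 0.90 (exact permutation, adjusted p = 0.00704 and 0.0165 over 32 relations), and r = 0.811 without the 2 farthest libraries. The other 7 genes did not pass in these libraries, and none of the 8 passed with the adipocyte gene Adipoq, where the lowest adjusted permutation p was 0.0992.

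**Figure D5:**
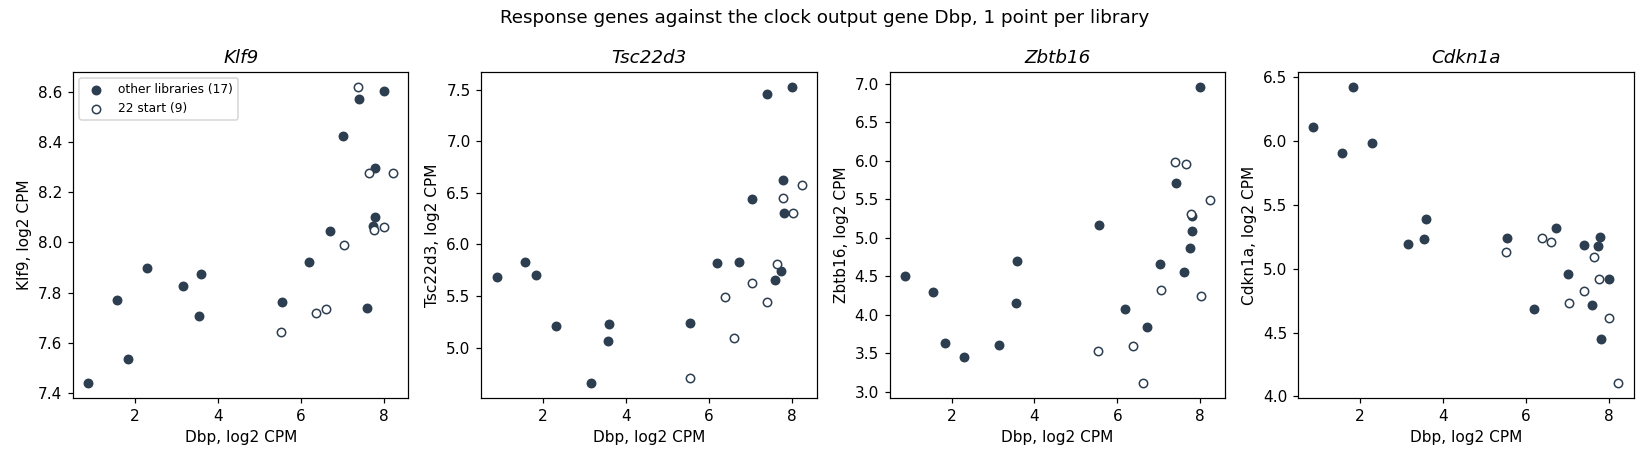
Log2 CPM of Klf9, Tsc22d3, Zbtb16 and Cdkn1a against log2 CPM of Dbp, 1 point per library. Filled points are the 17 libraries outside the 22 start and open points the 9 libraries of it. The filled points form a low and a high Dbp cluster, and the 4 libraries with the highest Cdkn1a lie in the low one.

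The genes most like each member were taken from 12899 genes by Spearman rho over 26 libraries, after group means were removed. Libraries differ in depth and tissue composition, so the values describe likeness only. Klf9 was nearest to Cdk6 (0.896), Lims1 (0.856) and Pcgf5 (0.847). Tsc22d3 was nearest to Mthfd1l (0.894), Wee1 (0.879) and Sgms1 (0.860), and Fkbp5 to Yeats2 (0.852), Map3k6 (0.835) and B3gnt8 (0.809). Sgk1 was nearest to Klf2 (0.850), a factor that endothelium raises under flow, Zbtb16 to Eef2k (0.843), Mt1 to Sult1a1 (0.842) and Cdkn1a to Kctd10 (0.801). The nearest gene to Pdk4 was Angptl4 (0.819), like Pdk4 a target of PPAR receptors.

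The authors' deposited tables give their own fold changes. In the authors' deposited table for the knockout, the log2 fold change was -1.49 for Fkbp5 and -1.26 for Tsc22d3, and neither was called, with adjusted p-values of 0.388 and 0.188. In the authors' deposited table for Y198F, Tsc22d3 was at -0.55 and Cdkn1a at 0.13. Against their labelled controls these genes gave 0.58 and -0.71 here, and against all 4 S205A controls -0.54 and 0.13. The authors' deposited table for Y198F also holds Zbtb16 at -1.47 and Fkbp5 at -1.18, where the labelled controls gave -0.21 and -0.08 here and all 4 S205A controls gave -1.47 and -1.17. For these 4 genes the deposited values thus lie within 0.01 of those against the S205A controls.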

How the data were processed

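The 9 genes, the gene lists and the tests were chosen with earlier results of these data known. Reads of 150 bases in pairs were mapped by the authors to GRCm39 with STAR 2.7.9a and assigned to genes as counts by featureCounts (Rsubread version 2.20.0), per the labels. The annotation release and the use of strand are not given in the sources used here. The authors deposited raw counts, a normalized signal (counts divided by a factor per library, for genes with over 50 counts in all), and 4 comparison tables from DESeq2 1.46.0 with a log2 fold change, its standard error, a test score, p-values and adjusted p-values.

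The deposited counts were tested here with edgeR 4.0.16 (R 4.3.3) in the groups of each comparison, with TMM, filterByExpr, robust quasi-likelihood fits and Benjamini-Hochberg adjustment over all genes tested at 0.05. CPM were scaled by TMM over all 26 libraries. Log2 CPM used a prior count of 2, and the floor was 3 counts, for counting error only. Of 57010 identifiers, 56310 were found in GENCODE vM39. Single levels were compared by exact permutation tests, and correlations by permutation (100000 resamples, or all pairings for 9 libraries or fewer). Alternatives were DESeq2 1.42.0, limma 3.58.1 (voom), other size factors, no filter, other sets of libraries and each library left out. The fits were tested on simulated data. All 9 genes are named. From each list, up to 4 genes past the threshold were to be named, and those a result is set beside. For likeness, 3 genes per member were computed. Cebpb in the knockout, the hormone-induced genes of S205A, Mt3, Mt4 and the genes that handle the hormone were named after their values were seen. Replicate libraries differed by more than sampling noise, with a chi-square per degree of freedom of at least 13.6, so each was counted.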

Additional observations from a re-analysis of the deposited data

Results flagged for a closer look

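With 4 libraries in a group, a library whose gap to its nearest neighbour took more of the group's range than Dixon's 95% critical value was singled out. Over 16 tested sets of 4 values this happened 2 times, and chance gives about 1 in 20. Zbtb16 in S205A library 4 stood at 61.9 CPM, while S205A libraries 1 to 3 lay between 11.5 and 12 CPM, a gap of 0.989 of the range. The same library had the highest Klf9 of its group (310 CPM) and the highest Dbp (201 CPM). Tsc22d3 in S205A control library 1 stood at 43.4 CPM, below the 86.8 to 95.5 CPM of the other controls, a gap of 0.834 of the range. That library also had the lowest Sgk1 of all libraries, at 24.3 CPM, and the highest Klf9, at 393 CPM. No difference between the effects of 2 mutations passed its test for any of the 8 genes.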

How the results depend on the processing

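No alternative called any of the 8 genes in the knockout, S205A or Y308F comparison. In Y198F, DESeq2 called 1 (Cdkn1a) among 2849 genes in all, the fit without a filter 2 (Cdkn1a and Tsc22d3) among 3158, and leaving out 1 library 0 to 2. The replicate block called 2 in Y198F (Cdkn1a with an adjusted p of 0.00997 and Pdk4 with 0.0383) and 0 elsewhere. Same-numbered libraries did not deviate together in every pair, with correlations from -0.0518 to 0.149 in Y198F and from -0.374 to 0.307 over all comparisons, so the numbers were not taken as pairs. Between control groups, leaving out 1 library gave 0 to 1 genes called in Y198F controls against WT and 0 to 1 in Y308F controls against WT.

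Signs turned in the following results. Pdk4 in the knockout was -0.00159 with DESeq2, -0.12 with limma voom, -0.00142 with other size factors, -0.0168 with all 8 groups in one fit and -0.0168 with the number start as a term, and -0.23 to 0.36 with 1 library left out. Against the S205A controls with the 22 number and against all 4 S205A controls (an alternative added after seeing the data), the Y198F values were -0.10 and -0.0762 for Mt1, -0.49 and -0.54 for Tsc22d3, 0.21 and 0.13 for Cdkn1a, and -0.40 and -0.43 for Klf9. Mt1 in Y198F was -0.36 with the number start as a term, and Mt1 in S205A -0.0287 with the replicate block. Leaving out 1 library turned the sign in 11 results. In the knockout Mt1 ran from -0.99 to 0.0580. In Y198F, Mt1 ran from -0.19 to 0.70, Fkbp5 from -0.65 to 0.27, Zbtb16 from -0.48 to 0.13 and Sgk1 from -0.13 to 0.0599. In S205A, Mt1 ran from -0.12 to 0.33. In Y308F, Fkbp5 ran from -0.76 to 0.0187, Zbtb16 from -0.0315 to 0.53, Klf9 from -0.17 to 0.29 and Cdkn1a from -0.13 to 0.85. The cause was not tested. Of all genes, 5 were called in the knockout by edgeR, 153 by DESeq2, 10 by limma voom, 243 without a filter and 18 with the block. The Y198F count of 2411 became 922 with all 8 groups in one fit, 0 with the number start as a term and 0 against S205A controls. With 1 library left out the count ran from 1 to 5 in the knockout and from 908 to 2128 in Y198F. DESeq2 called 38 genes in S205A, and without a filter 7 were called in Y308F, where edgeR called 0 in both. The number start called 902 genes, 2189 with all 8 groups and 70 to 1174 with 1 library left out. The difference of Panx1 KO and Y198F called 2004 genes, 108 with all 8 groups and 3 with the number start as a term, and that of Y198F and Y308F 979, 0 and 0. Y198F controls against WT called 0 genes, and 3 in a fit of those 2 groups alone.

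The 8 tested genes had at least 92 counts in every library. Mt2 could not be compared at this depth.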
